A study of Mus musculus with 145 samples.

Results

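Insertions of the piggyBac transposon were examined in Nipbl and in the other genes of the cohesin complex and its regulators, in mammary tumours of mice. The 10 genes were chosen by function, around Nipbl, whose recurrence in these tumours was already known, and each was located by its gene identifier in the authors' table of 13391 gene regions. A region was found for 9 of them (Nipbl, Smc1a, Smc3, Rad21, Stag1, Stag2, Wapl, Pds5a and Pds5b), and Mau2 was not analysed here. A gene was called hit in a tumour if 1 site or more, each with at least 10 reads of that tumour, lay inside its region. These reads define a hit, so the recurrence of Nipbl over all tumours is given as a description without a test.

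Cohesin is a ring built from the SMC proteins Smc1a and Smc3 and the kleisin Rad21, bound by Stag1 or Stag2. Nipbl and its partner Mau2 load the ring onto chromatin and Nipbl drives loop extrusion, whereas Wapl releases the ring and Pds5a and Pds5b regulate its stay on DNA. In humans, heterozygous loss of NIPBL causes Cornelia de Lange syndrome, and genes of the complex, STAG2 above others, are recurrently inactivated in several cancers.

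All mice carried WAP-Cre, a Cre gene under a promoter switched on in mammary epithelium by late pregnancy, with LSL-PB (a Cre-dependent piggyBac transposase), LSL-PIK3CA(H1047R) (a Cre-dependent activated PI3K alpha) and the transposon ATP1, and were mated to induce Cre. The untreated group held 94 tumours of 23 mice by library, of which 1, with the suffix R2, shares mouse and gland with another and may be a repeat of it (without it the Nipbl difference given later was 21.3 points in place of 21.5). The resistant group held 51 tumours of 25 mice that received 30 mg/kg BYL719 (alpelisib, an inhibitor of PI3K alpha) daily from a tumour volume of 250 mm3 and whose tumours grew at 3 consecutive measurements or more under treatment. Controls therefore carried the same oncogene and the same mobile transposon, and differed by label in treatment and outcome together, so that growth under BYL719 and exposure to it cannot be told apart. Mice were identified from the titles (48 names, whereas the labels state 53), age was not given in the labels, and p-values over tumours treat tumours of 1 mouse as independent.

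A library listed reads per insertion site, after PCR without molecular identifiers, so that intervals cover counting of tumours only. Library totals ran from 51 to 1604365 reads, with medians of 136932 in resistant and 48339 in untreated tumours. Counted sites (10 or more reads) had medians of 473 and 431 per tumour, and by title form 637 (Tgtumor) and 241.5 (Mouse) within the resistant group and 730 (TgTum) and 258 (tgTum) within the untreated group. No title form held both groups. A hit in a gene is thus 1 of many counted sites of a tumour.

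The piggyBac transposon inserts at the tetranucleotide TTAA. The deposited context of the 10 Nipbl sites with the most reads is printed below 5′ to 3′ on the strand of the site, with TTAA in capitals, to show that each lies at a canonical target and that no flanking sequence is shared by all of them. Positions are on chromosome 15 of mm10.
Untreated tumour 3, position 8312071, plus strand: TTAAtatg
Resistant tumour 25, position 8301819, minus strand: TTAAggaa
Resistant tumour 48, position 8420878, minus strand: TTAAgggc
Untreated tumour 22, position 8359766, minus strand: TTAAggta
Resistant tumour 6, position 8440886, minus strand: TTAActct
Untreated tumour 2, position 8359771, plus strand: TTAAaatc
Resistant tumour 10, position 8343345, plus strand: TTAAagta
Resistant tumour 3, position 8411956, minus strand: TTAAtaac
Resistant tumour 2, position 8414683, minus strand: TTAAattt
Untreated tumour 56, position 8342493, minus strand: TTAAgtgt
Of the 47 counted Nipbl sites, 47 lay at TTAA, against 96.3% of counted sites overall. The sites of untreated tumours 22 and 2 use the same TTAA, chr15:8359767-8359770, in opposite orientations, and are from different mice. On the plus strand it reads as follows.
Shared Nipbl target: taccTTAAaatc
No other pair of counted sites from different tumours lay within 100 bp of each other in any of the 9 genes.

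Nipbl, the loader, was hit in 31 tumours over both groups. Its region (identifier 71175, chr15:8289824-8467285, minus strand) is 177 kb long and held 47 counted sites, or 26.5 per 100 kb, against a median of 4.29 per 100 kb over 12557 gene regions outside chromosome 10. By number of hit tumours Nipbl ranked 39 among those regions, and by sites per 100 kb it ranked 457. Among the 1800 hit regions of 100 to 300 kb outside chromosome 10, with a median of 5 hit tumours, 1794 (99.7%) had fewer than Nipbl. At least 1 tumour was hit in 83% of all gene regions, so that being hit is in itself common.

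The insertions stopped near the ends of the gene. The window of the same length next to the 3′ end of Nipbl (chr15:8112362-8289823) held 0 counted sites, and the window next to the 5′ end (chr15:8467286-8644747) held 3, from 1 resistant and 2 untreated tumours. A count above that of both flanking windows was found in 46.1% of the hit regions outside chromosome 10. Of the 1800 regions of 100 to 300 kb, 4 (0.222%) held at least 10 times the sites of both flanks together, a limit chosen after the Nipbl values were seen. They were Nipbl, Trps1 (533 sites against 11 and 31 in its flanks), and Gm6902 and 3110082I17Rik with 1 site each and none in the flanks.

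Along the gene the sites did not fall into a single cluster. They spanned 159 kb, from 4.25 to 163 kb from the 5′ end of the 175 kb RefSeq gene, and 0 lay in the 1970 bp before it. In resistant tumours 7, 9, 9 and 3 sites lay in 4 successive parts of 43.9 kb from the 5′ end, with a median distance of 59.8 kb. In untreated tumours these parts held 3, 4, 7 and 5 sites, with a median of 98.9 kb. Both groups therefore had sites in each of the 4 parts. The largest stretch without a counted site inside this span was 20.2 kb. A RefSeq protein-coding locus inside Nipbl, LOC102634078 (chr15:8435112-8445863), held 5 of the sites, from 5 tumours, and those reads cannot be assigned to either gene. Exons and introns were not assigned here.

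**Figure D1:**
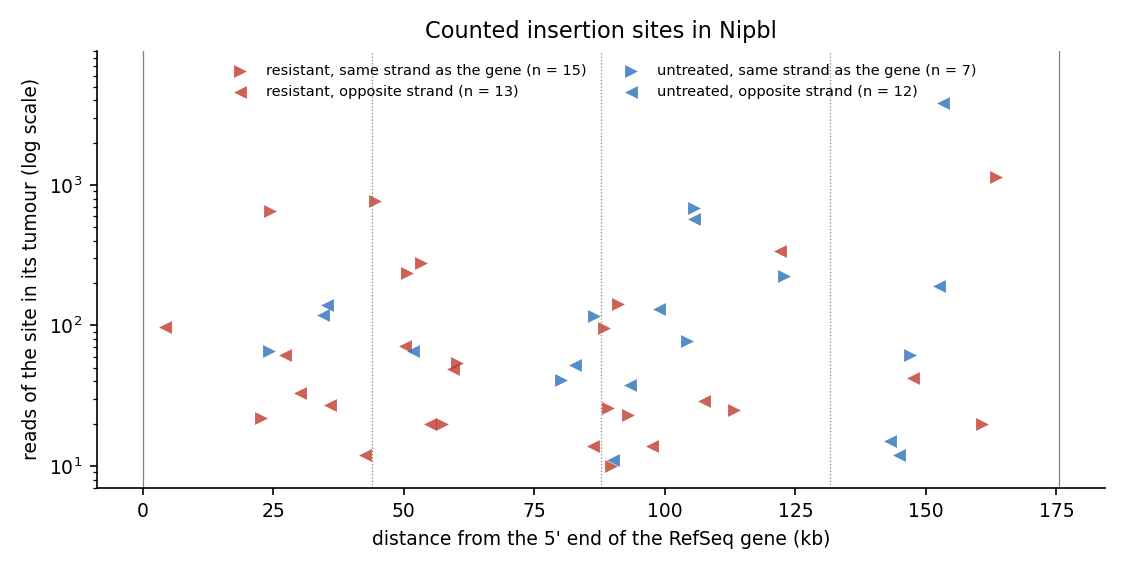
Each triangle is 1 of the 47 counted Nipbl sites, at its distance in kb from the 5′ end of the RefSeq gene (horizontal) and its reads in its tumour (vertical, log scale), in red for resistant and blue for untreated tumours, pointing right for the strand of the gene and left for the opposite strand. Solid lines mark the ends of the gene and dotted lines its 4 equal parts, and sites of both groups and both orientations lie along the gene.

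Nipbl insertions lay in both orientations. In resistant tumours 15 sites were on the strand of the gene and 13 on the opposite strand (53.6% same, exact binomial p = 0.851, adjusted p = 1 over 802 regions). In untreated tumours 7 and 12 were found (36.8% same, exact p = 0.359, adjusted p = 1 over 1423 regions), and the difference between groups had a Fisher exact p of 0.373 (adjusted p = 1 over 652 regions). Unadjusted p-values under 0.05 were reached by 2.74%, 3.09% and 3.53% of the regions in these 3 tests and adjusted ones by 0%. Orientation is given relative to an inferred strand, since Nipbl had no entry in the RefSeq promoter table. Sites in the part nearest the 5′ end were 2 same and 5 opposite in resistant tumours and 1 and 2 in untreated tumours.

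The share of tumours hit in Nipbl was 35.3% in the resistant group (18 of 51, 95% Clopper-Pearson interval 22.4 to 49.9, 12 mice) and 13.8% in the untreated group (13 of 94, 7.57 to 22.5, 9 mice). The difference of 21.5 percentage points had a Fisher exact p of 0.00514 and an adjusted p of 0.990 over 2558 regions hit in at least 5 tumours, and so did not pass. Unadjusted p-values under 0.05 were found for 3.01% of these regions (2.35% with the higher share in resistant tumours) and adjusted ones for 0%. With the group labels permuted over mice the p was 0.0179 (adjusted p = 0.717), where 5.79% of regions fell under 0.05 unadjusted and 0.156% adjusted. Counted by mouse, 12 of 25 resistant mice (48%) and 9 of 23 untreated mice (39.1%) had a Nipbl insertion in at least 1 tumour (Fisher exact p = 0.573). Untreated mice had more tumours each (94 tumours of 23 mice, against 51 of 25). A count by mouse therefore gave an untreated mouse more tumours in which to be hit.

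**Figure D2:**
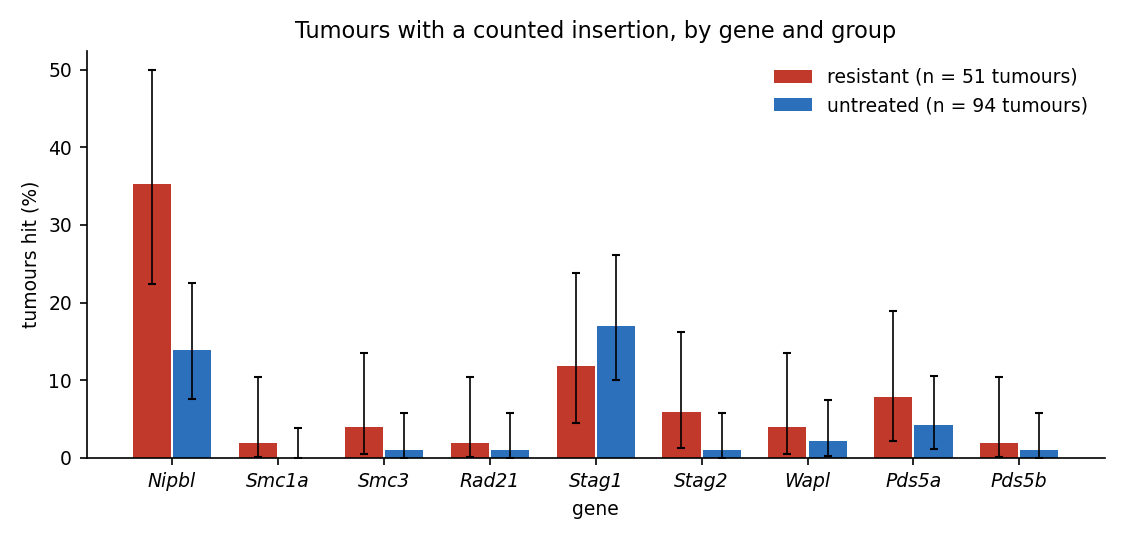
Bars give the percentage of tumours with a counted insertion in each of the 9 genes, in red for the 51 resistant and blue for the 94 untreated tumours, and lines are 95% Clopper-Pearson intervals. Nipbl stands at 35.3% and 13.8%, Stag1 at 11.8% and 17.02%, and the other 7 genes at 7.84% or less.

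Several Nipbl hits came from the same mice. In the resistant group 4 mice had at least 2 hit tumours, and 2 of these had 3 (3 of 3 and 3 of 4 tumours). In the untreated group 4 mice had 2 hit tumours and none had 3. By the counting rule, which gives a position and strand to the single tumour that has most of its reads, the sites of such tumours are separate positions. Leaving out the tumours of 1 mouse at a time gave differences from 17.4 points (p = 0.0243, without the mouse with 3 of 3) to 23.7 points (p = 0.00226, exact).

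The Nipbl share also moved with the number of counted sites of a tumour. Resistant tumours with a Nipbl insertion held a median of 925 counted sites (172 to 3321, n = 18) and those without one 398 (0 to 2456, n = 33). In the untreated group the medians were 1199 (166 to 3017, n = 13) and 377 (0 to 2689, n = 81). Tumours with a hit thus tended to be those with many sites, in both groups. When all tumours were ranked by counted sites and divided into 4 classes, 1 of 12, 3 of 12, 5 of 15 and 9 of 12 resistant tumours had a Nipbl insertion from the lowest class to the highest (8.33%, 25%, 33.3% and 75%). The untreated counts were 1 of 25, 0 of 24, 2 of 21 and 10 of 24 (4%, 0%, 9.52% and 41.7%). Within each of the 4 classes the resistant share was the higher. An exact test stratified over the classes, added after the data were seen, gave a difference of 21.6 points with p = 0.00169 (adjusted p = 0.617). This test treats tumours of 1 mouse as independent. The 9 hit resistant tumours of the highest class included all hit tumours of the 2 mice with 3 each.

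**Figure D3:**
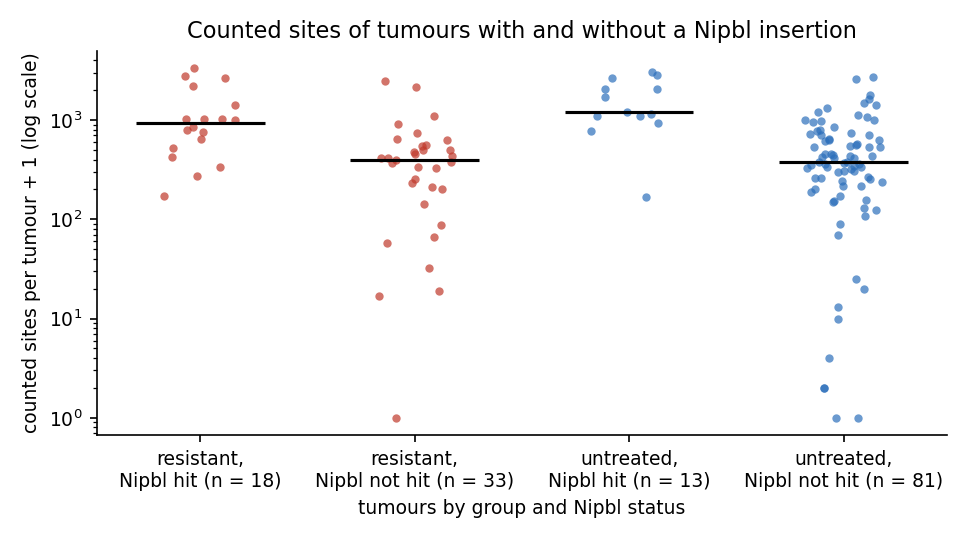
Each point is 1 tumour, at the number of its counted sites plus 1 (log scale), by group and by whether it had a counted Nipbl insertion, with the group median as a line. Medians are 925 and 398 sites in resistant tumours with and without a Nipbl insertion, and 1199 and 377 in untreated tumours.

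By title form, Nipbl was hit in 15 of 35 Tgtumor (42.9%, 26.3 to 60.6) and 3 of 16 Mouse libraries (18.8%, 4.05 to 45.6) of the resistant group. In the untreated group it was hit in 12 of 61 TgTum (19.7%, 10.6 to 31.8) and 1 of 33 tgTum libraries (3.03%, 0.0767 to 15.8). The forms with fewer sites per tumour had the lower share in both groups. The interval of each resistant form overlapped that of each untreated form, except for Tgtumor and tgTum. Since no title form held both groups, title form and group cannot be told apart. Without the tgTum libraries the difference was 15.6 points (p = 0.0863), and without the Mouse libraries it was 29.03 points (p = 0.00129, both Fisher exact). As a share of sites rather than tumours, Nipbl took 7.51 of every 10000 counted sites in resistant and 2.98 in untreated tumours.

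Nipbl insertions took small shares of the reads of their tumours. The site with the most Nipbl reads had 14, 66.5 and 1131 reads in resistant tumours (lowest, median and highest of 18) and 11, 130 and 3822 in untreated tumours (of 13). Summed Nipbl sites took 0.0155%, 0.114% and 0.859% of the reads of a resistant library and 0.0289%, 0.110% and 0.915% of an untreated one. These ranges overlap almost entirely. How far the share of reads follows the share of cells that carry an insertion was not tested.

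By rank within the tumour, the best Nipbl site stood at 3, 176 and 1771 (best, median and lowest) in resistant and at 3, 156 and 834 in untreated tumours. A site among the 10 most-read of its tumour was found once in each group: at position 8440886 in resistant tumour 6, with 647 reads (0.747% of the library, rank 3 of 522 sites), and at position 8312071 in untreated tumour 3, with 3822 reads (0.915%, rank 3 of 3017). These lay 24.4 and 153 kb from the 5′ end, on the strand of the gene and against it. The site of resistant tumour 6 also lies inside LOC102634078, so that its reads cannot be assigned to either gene. Among the 100 most-read were 6 of 28 resistant and 5 of 19 untreated Nipbl sites, whereas 12.7% and 13.6% of all counted sites of the groups were among the 100 most-read and 1.34% and 1.41% among the 10 most-read. The median rank was 310.5 over resistant and 260 over untreated Nipbl sites, against 474 and 458 over all counted sites, so that Nipbl sites ranked ahead of the typical site in both groups. This difference in rank was not tested. Over all regions, 4.18% held a site among the 10 most-read of some tumour and 26% among the 100 most-read.

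More than 1 Nipbl site was counted in 8 resistant tumours (6 with 2 and 2 with 3) and in 4 untreated tumours (3 with 2 and 1 with 4). Sites in both orientations occurred together in 7 of the resistant and 2 of the untreated tumours. Whether such sites lie on the 2 alleles of a cell or in different cells was not tested.

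The read minimum set how far the groups stood apart. Counting every Nipbl site with at least 1 read gave 21 resistant (41.2%) and 19 untreated tumours (20.2%), and a minimum of 30 gave 13 (25.5%) and 11 (11.7%). With 100 reads or more 7 resistant (13.7%) and 9 untreated tumours (9.57%) remained, a difference of 4.15 points (Fisher exact p = 0.580). With 300 or more 4 (7.84%) and 3 (3.19%) remained, so that the shares of both groups fell as the minimum rose. Libraries of the resistant group were the deeper ones. With each library thinned to 20000 reads, shallower ones left out, 11 of 48 resistant and 8 of 70 untreated tumours were hit, a difference of 11.5 points (Fisher exact p = 0.127). Thinning also raised the 10-read minimum as a share of the reads of deeper libraries. Median reads with and without a Nipbl insertion were 133091 and 142618 in resistant tumours, and 170942 and 32529 in untreated tumours. The part of depth in the group difference was not tested. The Nipbl sites nearest the limit had 10, 11, 12 and 12 reads inside it and 8, 7, 7 and 7 outside it, and 26 of the 74 Nipbl sites had 1 to 9 reads.

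**Figure D4:**
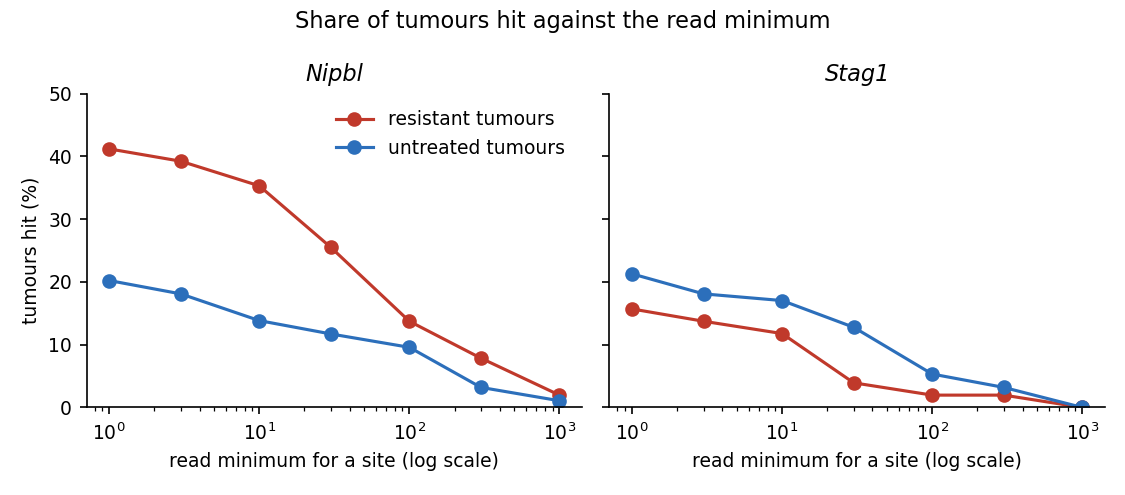
Lines give the percentage of resistant (red, n = 51) and untreated tumours (blue, n = 94) hit in Nipbl (left) and Stag1 (right) for read minima from 1 to 1000 (log scale). The Nipbl shares move from 41.2% and 20.2% at 1 read to 13.7% and 9.57% at 100 reads, and the resistant Stag1 share is at or below the untreated one throughout.

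Stag1, which binds the ring as the alternative to Stag2, had the lower share in resistant tumours. Counted insertions were found in 6 resistant tumours (11.8%, 4.44 to 23.9, 6 mice) and 16 untreated tumours (17.02%, 10.1 to 26.2, 11 mice), a difference of -5.26 points that did not pass (Fisher exact p = 0.474, adjusted p = 1). Counted by mouse, 6 of 25 and 11 of 23 were hit (24% and 47.8%, Fisher exact p = 0.131), where untreated mice had more tumours each. Its region (identifier 20842, chr9:100641623-100958544, plus strand) is 317 kb long and held 25 sites, or 7.89 per 100 kb, against 9 and 17 sites in the flanking windows. Orientations were 4 same and 4 opposite in resistant and 10 and 7 in untreated tumours, and none of the sites was among the 10 most-read of its tumour. The most-read Stag1 site, at position 100660879 in resistant tumour 40, had 507 reads and rank 125 of 548.

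Stag2, the X-linked partner, had a counted insertion in 3 resistant tumours (5.88%) and 1 untreated tumour (1.06%). Its 5 sites had 42 to 182 reads, the highest at position 42147958 in resistant tumour 11 (chrX, rank 55 of 2642). That site lay on the strand of the gene at 0.421% of the region's length from the 5′ end of the region. A region can begin before the RefSeq gene, as that of Nipbl does. Whether this site lies inside Stag2 itself was not worked out. The flanking windows of Stag2 held 7 and 6 sites, so that the gene was not above its surroundings.

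Among the core ring genes insertions were few. Smc3 was hit in 2 resistant and 1 untreated tumour, Rad21 in 1 and 1, and Smc1a in 1 resistant and 0 untreated tumours. A count of 0 of 94 leaves an upper 95% limit of 3.85% for Smc1a. The most-read sites had 136 reads in Smc3 (position 53606408, untreated tumour 49, rank 130 of 295), 160 in Rad21 (position 51990346, resistant tumour 13, rank 416 of 1026) and 26 in Smc1a (position 152031606, resistant tumour 30, rank 218 of 1033). These are the shortest of the 9 regions, at 47.4 kb for Smc3, 31.2 kb for Rad21 and 47.5 kb for Smc1a, and none held more sites than both of its flanking windows.

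The release and regulatory factors differed among themselves, from 9.46 sites per 100 kb in Pds5a to 5.38 in Wapl and 1.44 in Pds5b, the lowest of the 9 genes. Pds5a had hits in 4 resistant (7.84%, 2.18 to 18.9) and 4 untreated tumours (4.26%, 1.17 to 10.5), with a difference of 3.59 points (Fisher exact p = 0.452, adjusted p = 1). With a minimum of 100 reads the Pds5a difference turned to -1.06 points, from 0 and 1 tumour. Wapl was hit in 2 tumours of each group and Pds5b in 1 of each. Wapl held the single most-read site outside Nipbl, at position 34683929 of chromosome 14 in resistant tumour 26, with 1476 reads (0.0920% of the library, rank 92 of 2173) and on the strand opposite to the gene. The most-read sites of Pds5a and Pds5b had 107 reads (position 65657345, untreated tumour 31, rank 72 of 859) and 70 reads (position 150793868, untreated tumour 38, rank 204 of 1199).

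**Figure D5:**
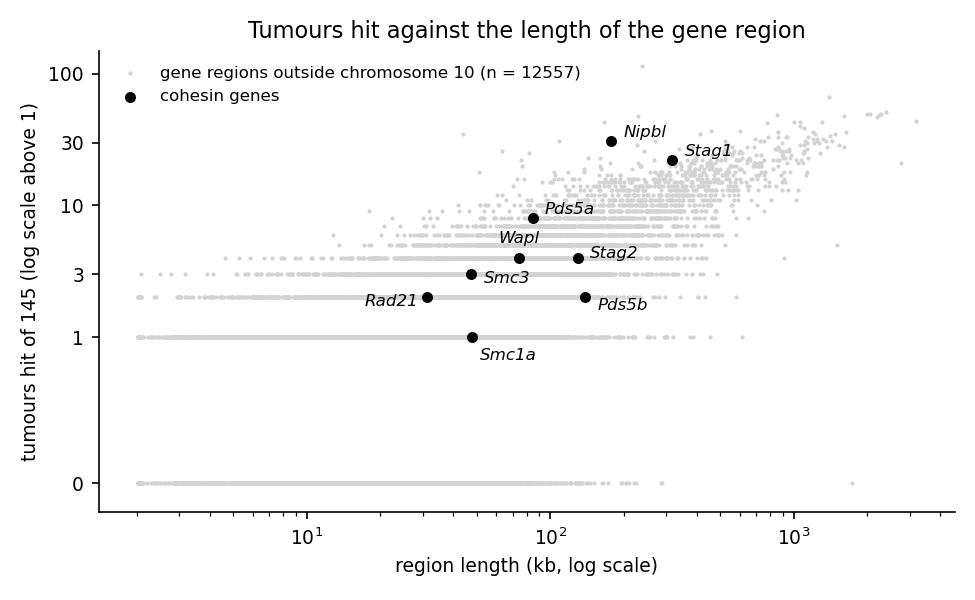
Each grey point is 1 of 12557 gene regions outside chromosome 10, at its length in kb (log scale) and the number of tumours hit (log scale above 1), and black points are the 9 cohesin genes. Nipbl, at 177 kb and 31 tumours, lies high among regions of its length, Stag1 follows at 317 kb and 22 tumours, and the other 7 genes were hit in 8 tumours or fewer.

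Of the 9 genes, 3 (Nipbl, Stag1 and Pds5a) were hit in at least 5 tumours and so were tested, and none passed. The share was higher in resistant tumours for 8 of the 9, against 46.3% of all regions hit. With 1 to 4 hit tumours in 6 of the genes, that direction rests on single tumours. The median difference was 1.96 points over the 9 genes and -0.167 over all regions hit. An insertion in any of the 9 genes was counted in 26 tumours of the resistant group (51.0%) and 24 of the untreated group (25.5%), and any but Nipbl in 16 (31.4%) and 21 (22.3%).

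In the authors' deposited table, whose rule for counting an insertion is not given in the sources used, shares for Nipbl stood at 43.14% of resistant and 28.72% of untreated samples (22 and 27 samples, 39 and 32 insertions). The same deposited table gave Stag1 19.61% and 26.6%, Pds5a 13.73% and 7.45%, Wapl 15.69% and 6.38%, and Stag2 5.88% and 2.13%. The direction for these 5 genes in the authors' table was that found here, over the same libraries, so that this is not a separate check. For Wapl it rested on 2 hit tumours of each group. Counting every Wapl site with at least 1 read gave 3 resistant (5.88%) and 6 untreated tumours (6.38%), the opposite direction. The authors listed 8 resistant samples for 3 Wapl insertions, and the cause was not tested. In the authors' table the signed score for the gene-centred integration test was 14.8 and 5.59 for Nipbl. Over the other 8 genes the highest was 1.31 (Pds5a, resistant).

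Nipbl insertions were set beside those of other genes that recur in these tumours. Kmt2c, a histone H3 lysine 4 methyltransferase, was hit in 13 of 18 resistant tumours with a Nipbl insertion (72.2%) and 11 of 33 without one (33.3%), and in 8 of 13 (61.5%) and 16 of 81 (19.8%) untreated tumours. Fbxw7, a substrate receptor of a ubiquitin ligase, was hit in 12 (66.7%) and 10 (30.3%) of the same resistant tumours, and in 4 (30.8%) and 17 (20.99%) of the untreated ones. Nf1, which switches RAS off, was hit in 8 (44.4%) and 10 (30.3%) resistant tumours, but in 0 of 13 and 8 of 81 (9.88%) untreated tumours. Trps1, a transcriptional repressor, was hit in 16 and 25 resistant and in 13 and 60 untreated tumours.

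Stag1 was hit in 7 of the 13 untreated tumours with a Nipbl insertion (53.8%) and 9 of the 81 without one (11.1%), against 2 of 18 and 4 of 33 in the resistant group. Tumours with a Nipbl insertion also held more counted sites, with the medians of 925 against 398 and 1199 against 377 given above. The part of that number in these shared hits was not tested.

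Over all tumours of both groups, the genes whose hit tumours were most like those of Nipbl were named by the Jaccard index (tumours hit in both genes divided by tumours hit in either), among 760 genes outside chromosome 10 hit in at least 10 tumours, with a median index of 0.15. They were Dnm3 (0.429, 15 of its 19 hit tumours shared), Fhit (0.386, 22 of 48), Macrod2 (0.373, 22 of 50), Kmt2c (0.362, 21 of 48) and Mecom (0.359, 14 of 22). The points share library depth, and no test was made.

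Other genes of sister chromatid cohesion, condensin, the SMC5/6 complex and syndromes related to Cornelia de Lange syndrome were described from a list of 32. A region was found for 23 and a hit tumour for 20 of these, against 83% of all gene regions. Of the 7 tested, 0 passed and 3 had an unadjusted p under 0.05, against 3.01% of all regions tested. The 3 were also those with the most hit tumours. Ankrd11, a chromatin regulator mutated in KBG syndrome, was hit in 12 tumours of the resistant group (23.5%) and 8 of the untreated group (8.51%, Fisher exact p = 0.0212). Nsmce2, a SUMO ligase of the SMC5/6 complex, was hit in 10 (19.6%) and 6 (6.38%, p = 0.0243, exact), and Hdac8, which deacetylates Smc3, in 9 (17.6%) and 5 (5.32%, p = 0.0353, exact). The adjusted p was 0.990 for each. Of the 20 genes with a hit, 12 had the higher share in resistant and 8 in untreated tumours, against 46.3% of all regions hit with the higher share in resistant tumours.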

How the data were processed

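Splinkerette PCR of the 5′ transposon arm was used to map insertions in tumour DNA, per the labels' protocols. Per the submitters' processing notes the genome build was mm10, while aligner and site caller are not given in the sources used. The authors deposited whole-number read counts per site and library, which show no scaling. The per-sample columns named cnt2 and div, undefined in the file headers, were used in 2 alternatives only. A further 435 per-sample columns were not used. A deposited table of the authors gave, per region, counts of insertions, the percent of samples hit and a signed score. Of its 13391 gene regions, 12384 matched RefSeq (GRCm38.p6) by identifier.

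Each position and strand was assigned to the single tumour that had most of its reads, and 16 sites found in the majority of libraries were left out. The groups' shares were tested by Fisher's exact test (two-sided), adjusted by Benjamini and Hochberg's method over regions hit in at least 5 tumours (threshold 0.05), and orientation by exact binomial and Fisher tests over regions with at least 5 sites. Group labels were permuted over mice with 100000 resamples. Gene strands came from the RefSeq promoter table or from the extended end of the region, which agreed in 99.97% of 7461 regions with both. With this strand, the share of same-strand insertions was within 25 points of the authors' in 99.9% of 1632 regions. With the strands flipped it still was in 72.4%, so that most regions cannot tell the strands apart by this limit.

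The genes and lists were chosen with earlier results of these data known. Named besides the 10 genes were the 3 listed relatives with the most hit tumours, the 5 genes most like Nipbl by Jaccard index, Nf1, Kmt2c, Trps1 and Fbxw7, the 10 most-read Nipbl sites and the most-read site of each other gene. The scripts (Python 3.11.15, numpy 2.4.6, scipy 1.17.1, pandas 2.3.3) were tested on simulated data.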

Additional observations from a re-analysis of the deposited data

How the results depend on the processing

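Over 18 alternatives the Nipbl difference stayed positive, from 3.59 to 29.03 percentage points, with an unadjusted p under 0.05 in 11 of them and adjusted p-values from 0.465 to 1. The 11 are not separate checks. Requiring 1 or 10 hit tumours changed only the set of regions tested, so the unadjusted Nipbl p stayed at 0.00514 (Fisher exact). Keeping shared positions or only TTAA sites also left 18 and 13 hit tumours. A minimum of 3 in the undefined column cnt2 repeated the counts of a 3-read minimum (20 and 17 tumours). The Nipbl difference was 6.45 points (Fisher exact p = 0.195) with the 100 most-read sites of each tumour and 12.9 (Fisher exact p = 0.0521) with the 300 most-read. It was 14.9 (p = 0.0305) with at least 0.05% of the reads and 8.87 by mouse (both Fisher exact). The lowest value came from an undefined per-sample column (named div, at least 3), an alternative added after the data were seen. The number of regions that passed was 0, but 14 with shared positions kept in every tumour and 4 with labels permuted over mice, and Nipbl was not among them in either (adjusted p = 0.589 and 0.717); the cause was not tested. The Pds5a difference reversed to -1.06 points with a minimum of 100 reads, with the 100 most-read sites and with at least 0.05% of the reads, where 1 hit tumour was left; Smc1a, Smc3, Rad21, Wapl and Pds5b, with 1 to 4 hit tumours, also moved to 0 or below under some settings. Same-strand Nipbl sites made up 61.1% (resistant) and 30.8% (untreated) with 1 site per tumour and 85.7% and 33.3% with a minimum of 100 reads (6 of 7 and 3 of 9 sites), with adjusted p = 1 throughout. No paired analysis was possible because replicate numbers were given in accession order and pair no tumours. Shallow libraries, down to 51 reads, limit what a missing hit can show.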

Other observations

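Nipbl sites lacked reads in most other libraries. Of the 19 counted Nipbl sites of untreated tumours, 7 had reads in at least 1 further library, against 1 of the 28 sites of resistant tumours. For the untreated site at position 8312071, with 3822 reads in its own tumour, 8 further libraries together held 12 reads. Stag1 had such reads at 6 of 17 untreated and 1 of 8 resistant sites. The groups held 94 untreated and 51 resistant libraries. The share of all counted sites with such reads was not worked out, and whether the contrast is particular to Nipbl was not tested.

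Several insertions in the ring genes and in Stag2 lay in tumours that also had one in Nipbl. The 1 tumour with an Smc1a insertion (resistant) had one, as had the tumours with a Rad21 insertion (1 resistant and 1 untreated). Of the 4 tumours with a Stag2 insertion, 3 also had a Nipbl insertion (2 of 3 resistant and 1 of 1 untreated), and the Smc3 insertions of resistant tumours lay in 2 tumours that both had one, whereas the Smc3 insertion of the untreated group lay in a tumour without one. Insertions in at least 2 of the 9 genes occurred in 8 of 51 resistant and 11 of 94 untreated tumours, and 3 was the highest number in 1 tumour. Tumours with a Nipbl insertion held more counted sites, with medians of 925 against 398 (resistant) and 1199 against 377 (untreated). How often insertions in all other genes fell in such tumours was not worked out. These are values without a test.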
